A study of Mus musculus with 4 samples.

Results

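The signals of 8 genes of the NF-kB pathway were examined in mouse embryonic fibroblasts. They are the subunit genes Rela, Relb and Nfkb2, the inhibitor genes Nfkbia, Nfkbib and Nfkbie, the feedback inhibitor gene Tnfaip3, and the kinase gene Ikbkb. Every probe set whose platform annotation gave exactly 1 symbol, that symbol being one of the 8, was taken, which gave 11 probe sets of 12422 tested. These stand for 8 of the 8251 genes named on the array. All cells were fibroblasts without Men1, the gene of the nuclear scaffold protein menin, from a mixed FVB;129Sv background. On 2 arrays the knockout cells had been complemented with Men1, and on the other 2 they carried vector, so that the knockout itself was shared by both groups. The promoter that drove Men1, and whether cells were 1 clone or several, were not stated in the sources used. The cells had grown in medium with 10% serum and were harvested 24 h after seeding at 70% density. The question of the series was which genes menin regulates.

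NF-kB factors are dimers of Rel family proteins that are held in the cytoplasm by IkB inhibitor proteins. In the canonical pathway, signals from tumour necrosis factor or interleukin receptors activate the IkB kinase, the IkB proteins are phosphorylated and degraded, and dimers containing RelA enter the nucleus. Genes of several inhibitors are themselves NF-kB targets, which gives the pathway its negative feedback, and fibroblasts have long served as cells in which this loop is studied. Menin is reported to bind NF-kB proteins, which is why these genes were chosen.

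The promoters of the genes under feedback are shown as background, and no result below was tested against them. RefSeq windows (GRCm38.p6) of 250 bases before and 50 after a start site were found for 6 of the 8 member genes, in 9 windows, and were searched on both strands for the 10-base kappaB consensus motif. At least 1 match lay in 6 of the 9 windows and in 4 of the 6 genes, Nfkb2, Nfkbia, Nfkbie and Tnfaip3. Among all 32851 windows of this length in the table, 4.51% held a match. The windows of Rela and Nfkbib held none. Each sequence below is written 5′ to 3′ on the strand of the gene, with the matched bases in capitals. Nfkb2 had 3 windows and Tnfaip3 had 2, of which the one listed first in the table is shown for each.
Nfkbie (chr17:45555450-45555749, plus strand): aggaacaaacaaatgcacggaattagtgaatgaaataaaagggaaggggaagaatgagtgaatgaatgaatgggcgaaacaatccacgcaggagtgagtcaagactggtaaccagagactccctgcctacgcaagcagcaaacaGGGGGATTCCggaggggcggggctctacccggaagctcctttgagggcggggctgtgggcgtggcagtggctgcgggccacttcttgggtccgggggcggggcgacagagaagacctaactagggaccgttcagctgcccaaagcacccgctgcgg
Tnfaip3 (chr10:19015361-19015660, minus strand): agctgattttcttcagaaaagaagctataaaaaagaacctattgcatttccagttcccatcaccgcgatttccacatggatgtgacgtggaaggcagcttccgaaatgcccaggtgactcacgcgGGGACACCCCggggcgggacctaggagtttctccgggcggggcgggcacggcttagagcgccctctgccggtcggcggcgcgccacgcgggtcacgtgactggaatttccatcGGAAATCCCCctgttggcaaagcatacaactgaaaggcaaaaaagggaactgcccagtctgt
Nfkbia (chr12:55492598-55492897, minus strand): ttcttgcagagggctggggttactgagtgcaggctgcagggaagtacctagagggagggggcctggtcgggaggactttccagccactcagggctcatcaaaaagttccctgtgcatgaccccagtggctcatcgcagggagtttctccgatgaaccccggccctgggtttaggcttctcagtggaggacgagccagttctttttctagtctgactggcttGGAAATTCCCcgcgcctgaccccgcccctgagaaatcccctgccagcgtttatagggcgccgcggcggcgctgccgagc
Nfkb2 (chr19:46304487-46304786, plus strand): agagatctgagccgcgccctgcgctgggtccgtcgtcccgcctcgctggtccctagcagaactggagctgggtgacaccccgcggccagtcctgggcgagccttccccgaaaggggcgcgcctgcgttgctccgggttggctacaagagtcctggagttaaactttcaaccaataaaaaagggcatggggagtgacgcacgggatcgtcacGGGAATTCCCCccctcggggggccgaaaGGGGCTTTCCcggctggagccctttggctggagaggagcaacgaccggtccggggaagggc
In Nfkbie the match GGGGGATTCC began 106 bases before the start site. In Tnfaip3 the matches began 125 and 12 bases before it, and in Nfkbia the match began 29 bases before it. In Nfkb2 a pair of overlapping matches began 39 and 38 bases before the start site, and a further match began 11 bases before it. The other Nfkb2 windows overlap each other and held 2 matches and 1 match, with 1 site lying in both, and the other Tnfaip3 window held 0. A match describes letters in the window and does not show binding.

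Across the 4 arrays the 2% trimmed mean signal was 150.07 to 150.08, since the authors had scaled each array as a whole. As a mark of what these probe sets read with no target, the highest signal among 19 control probe sets without added RNA came to 25.9 and 27.4 with Men1, and to 15.9 and 20 with vector. A signal that did not exceed this value on its array is called at control level. Of the 11 fibroblast markers listed, 7 were above the controls on all 4 arrays, with the collagen gene Col1a1 at 7618.7 and 6175.7 with Men1, as against 6057.4 and 7091.9 with vector. The fibroblast surface marker Thy1 was at control level on all 4. Of 9 measured leukocyte markers 4 were above the controls on all 4 arrays. They were Cd68, Csf1r, Cd74 and Cd14, the last of which fibroblasts can express. Ptprc, the pan-leukocyte marker, was at 1.2 to 3.7. The summed leukocyte signal was 466.9 and 483.7 with Men1, as against 437.5 and 487.9 with vector, and its part in any result below was not tested. Of the 9 leukocyte markers, 1 stood at an unadjusted limma p under 0.05, where 1.68% of all genes did. It was the B cell gene Cd79a, with 20.6 and 19 in the Men1-complemented cells, both at control level, versus 41.3 and 30.9 with vector. Cd74 and Cd14 went the other way without overlap. Cd74 stood at 64 and 70.5 with Men1, versus 54 and 51.7 with vector, and Cd14 at 257.8 and 254.7, versus 218.3 and 241.6. Groups did not overlap for 2 of the 9 higher and 1 lower, against 22.1% of all genes. Above the controls on all 4 arrays were 1 of 5 endothelial and 2 of 5 epithelial markers. The single Men1 probe set stood at 18.8 and 22.5 with Men1, both at control level, versus 18.1 and 29.5 with vector, both above the controls of their arrays. The groups overlapped. Since its place relative to the deleted and introduced sequence is not known here, it checks no label. Because these are bulk samples, fewer cells of a type and less RNA per cell cannot be told apart.

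None of the 8 genes passed the test for a difference between Men1-complemented and vector fibroblasts. The gene furthest from no difference was Nfkbie, which encodes the inhibitor IkB epsilon and read 1.39-fold higher with Men1 on the log2(signal + 16) scale. Every probe set of the other inhibitor genes also had a mean above that of the vector arrays, but with arrays that overlapped. Relb was the only member gene whose brighter probe set averaged lower with Men1. Signals were compared as log2(signal + 16), where differences are Men1-complemented minus vector, and each was tested with limma across all 12422 probe sets. By this test 0 of the 11 member probe sets passed a Benjamini-Hochberg adjusted p of 0.05, and over all probe sets 0% passed. At an unadjusted limma p under 0.05 there was 1 of the 11, Nfkbie, where 1.88% of all probe sets stood below that value.

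**Figure D1:**
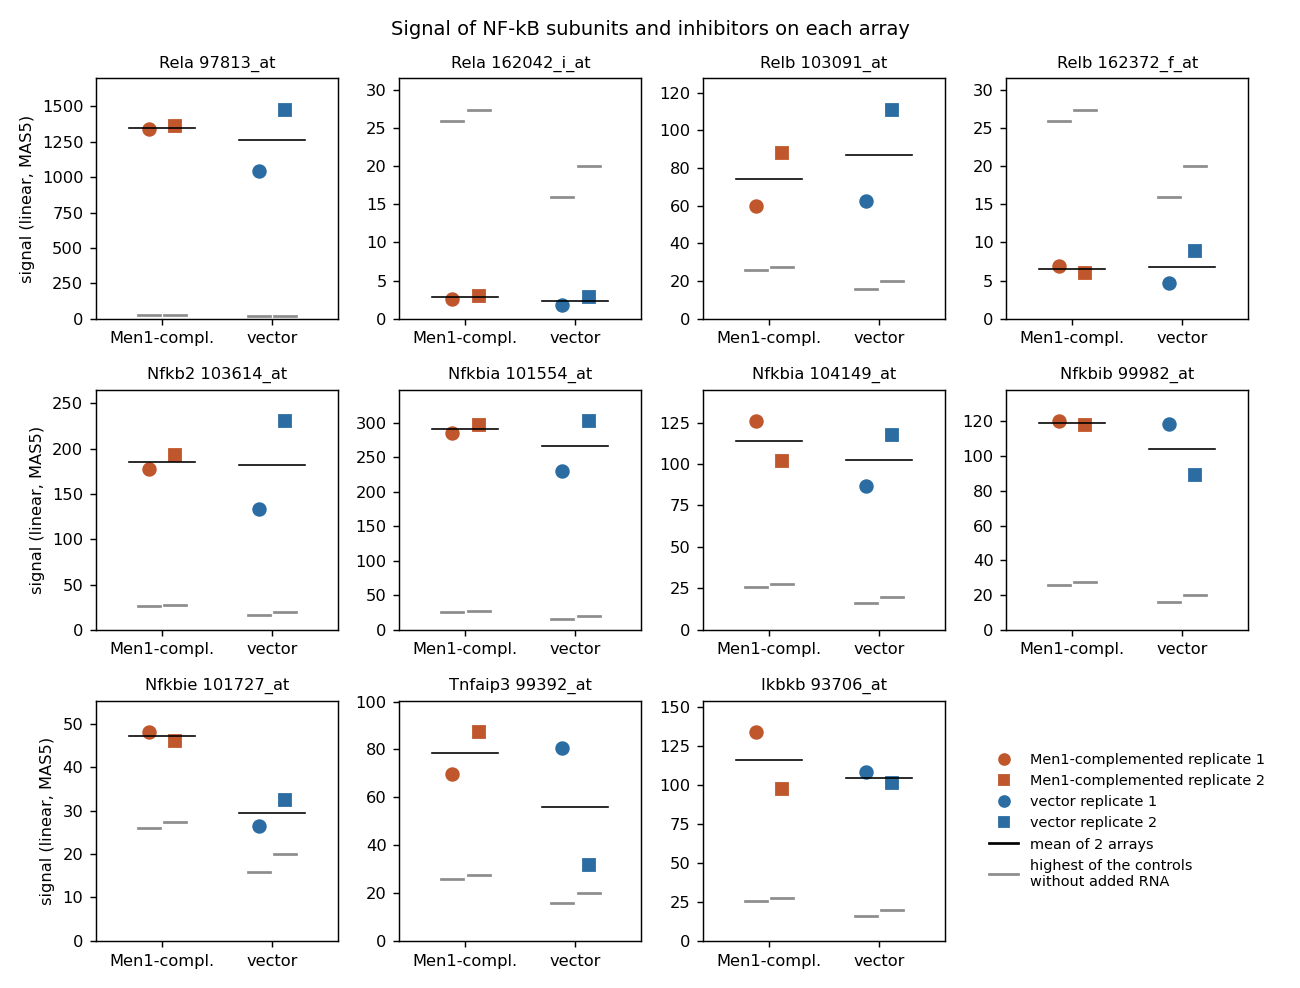
Signal (linear MAS5 units, each panel with its own axis from 0) of the 11 member probe sets on the 2 Men1-complemented arrays (orange) and the 2 vector arrays (blue), with circles for replicate 1, squares for replicate 2, black lines for means and grey lines for the highest control without added RNA. Nfkbie is the single panel in which the groups do not overlap, and the Rela 162042_i_at and Relb 162372_f_at panels lie below the controls on every array.

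Among the subunits, Rela encodes RelA, the main activating subunit of the canonical pathway. Its bright probe set 97813_at read 1337.2 and 1363 with Men1, as against 1043.6 and 1476.7 with vector. Both Men1-complemented signals lay between those of the vector arrays, so the groups overlapped. This log2 difference was 0.12 with a standard error (SE) of 0.23, and its 95% interval, as a fold, ran from 0.717 to 1.64. A second Rela probe set, 162042_i_at, read 2.6 and 3 with Men1, as against 1.8 and 2.9 with vector, at control level on all 4 arrays, and so gave no fold.

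Relb encodes the transactivating subunit of the non-canonical pathway. Probe set 103091_at read 59.7 and 88.2 with Men1, as against 62.5 and 111 with vector. In both groups replicate 2 was the higher array, and the groups overlapped. The log2 difference was -0.17 (SE 0.32), with a fold interval from 0.505 to 1.57. Its other probe set, 162372_f_at, whose suffix marks probes shared by a family of sequences, read 6.9 and 6 with Men1, as against 4.7 and 8.9 with vector, again at control level throughout.

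Nfkb2 encodes the precursor that both holds RelB in the cytoplasm and is processed to its DNA-binding partner. It read 177.9 and 193.1 with Men1, as against 133.4 and 230.7 with vector. The vector arrays lay on either side of both Men1-complemented arrays, as they did for Rela. The means were 185.5 ± 10.7 with Men1 and 182.05 ± 68.8 with vector (SD, n = 2 each), a log2 difference of 0.069 (SE 0.29) with a fold interval from 0.625 to 1.76. Over the 3 subunit probe sets that were not at control level throughout, the differences ran from -0.17 to 0.12, with 2 above 0 and 1 below it.

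The classical IkB inhibitors trap dimers in the cytoplasm. Nfkbie read 48.1 and 46.1 with Men1, as against 26.4 and 32.4 with vector. Both arrays with Men1 were above both with vector, and all 4 signals exceeded the controls on their array. The means were 47.1 ± 1.41 with Men1 and 29.4 ± 4.24 with vector (SD, n = 2 each). The log2 difference was 0.48 (SE 0.18), a fold of 1.39 with an interval from 1.01 to 1.92. The unadjusted limma p was 0.0458, the adjusted p was 1, and its rank by p was 210 among the 12422 probe sets. A log2 difference of at least this size in either direction was found in 5.47% of all probe sets. With a pseudocount of 1 the log2 difference was 0.67 with an unadjusted limma p of 0.0654, and with a pseudocount of 64 it was 0.25, since a pseudocount near the signal itself shrinks the fold.

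Nfkbia encodes IkB alpha, the inhibitor that is degraded and resynthesised fastest after stimulation. It had 2 probe sets, both above the controls. The brighter, 101554_at, read 284.9 and 297 with Men1, as against 230.9 and 303.1 with vector. The dimmer, 104149_at, read 126 and 101.6 with Men1, as against 87 and 117.5 with vector. In both probe sets vector replicate 1 was the lowest of the 4 arrays and the groups overlapped. Their log2 differences were alike, at 0.13 (SE 0.21) and 0.14 (SE 0.22), with fold intervals from 0.755 to 1.58 and from 0.737 to 1.65.

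Nfkbib encodes IkB beta, a slower and more persistent inhibitor. It read 120.2 and 117.6 with Men1, as against 118.3 and 89.2 with vector. Vector replicate 1 lay between the arrays with Men1, and only vector replicate 2 was lower. The log2 difference was 0.18 (SE 0.20), with a fold interval from 0.789 to 1.63.

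Tnfaip3 encodes a ubiquitin-editing enzyme that shuts off signalling upstream of the kinase. It read 69.6 and 87.3 with Men1, as against 80.7 and 31.6 with vector. Vector replicate 1 lay between the arrays with Men1, whereas vector replicate 2 was below both and above the controls. The log2 difference of 0.47 was nearly that of Nfkbie, but its SE was 0.38 and the fold interval ran from 0.703 to 2.73. The gap between the vector arrays, 1.02 on the log2 scale, was the widest of any member.

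Ikbkb encodes the catalytic subunit IKK beta, which phosphorylates the IkB proteins. It read 134.2 and 97.7 with Men1, as against 108.6 and 101.2 with vector. Here the arrays with Men1 lay on either side of those with vector. The log2 difference was 0.11 (SE 0.21), with a fold interval from 0.737 to 1.59.

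**Figure D2:**
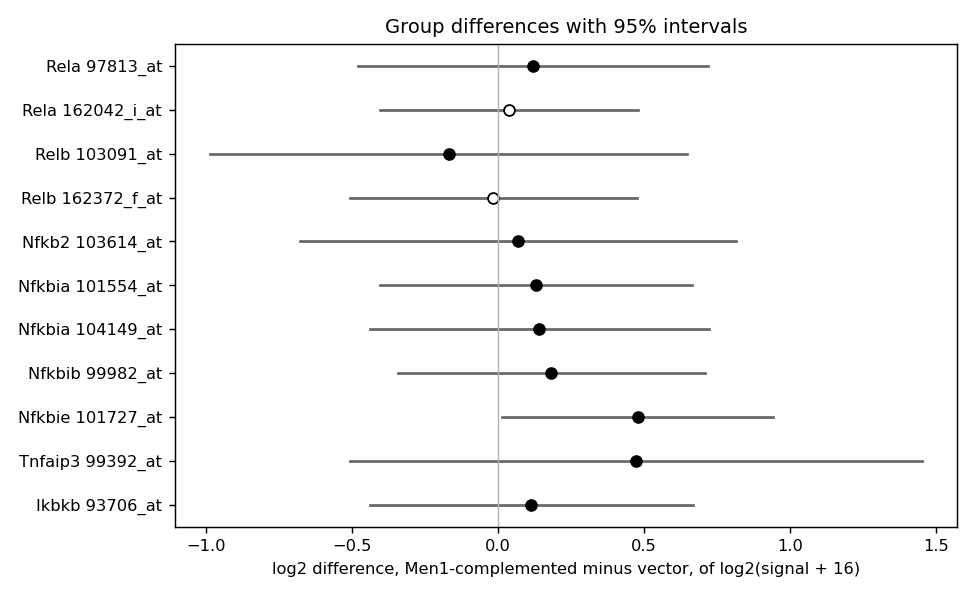
Log2 difference (Men1-complemented minus vector, of log2(signal + 16)) of each member probe set, with points for the estimate, bars for limma's 95% interval, and open points for the 2 probe sets at control level on all 4 arrays. The interval of Nfkbie, 0.013 to 0.94, is the single one that does not include 0.

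The 2 probe sets at control level on all 4 arrays, 1 of Rela and 1 of Relb, carry no readable direction, and the counts of directions below are over the other 9. Of these, 8 had a log2 difference above 0, where 46.3% of the 9258 probe sets above the controls on at least 1 array did. The median was 0.13 over the 9 and -0.019 over the 9258. The controls were lower on the vector arrays, so a probe set could enter the 9258 through these alone. All 9 member probe sets were above the controls on all 4 arrays. Of the 7217 probe sets for which this held, 3564 had a difference above 0, with a median of -0.0030. The 5 probe sets of Nfkbia, Nfkbib, Nfkbie and Tnfaip3, 2 of them of Nfkbia, were all above 0, with a median of 0.18. Of these, only Nfkbie and Nfkbib stayed above 0 whichever array was left out. The groups did not overlap for 1 of the 11 member probe sets, against 22.1% of all probe sets. Signals of different probe sets are not compared as levels, since each depends on its own probes.

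For most of these probe sets the vector arrays lay further apart than the arrays with Men1. Over the 9, the 2 arrays with Men1 had a median log2 gap of 0.11, and the 2 with vector one of 0.37. Over the 9258 the median gap was 0.22 with Men1 and 0.36 with vector. The vector gap was the larger for 8 of the 9, as for 65.5% of the 9258, with Ikbkb the exception. It also exceeded the difference between the groups for 7 of the 9, as for 76.4% of the 9258, with Nfkbie and Ikbkb the exceptions. Vector replicate 2 was the brighter for 6 of the 9, as for 59.5% of the 9258. Nfkbib, Tnfaip3 and Ikbkb were the 3 brighter on vector replicate 1.

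**Figure D3:**
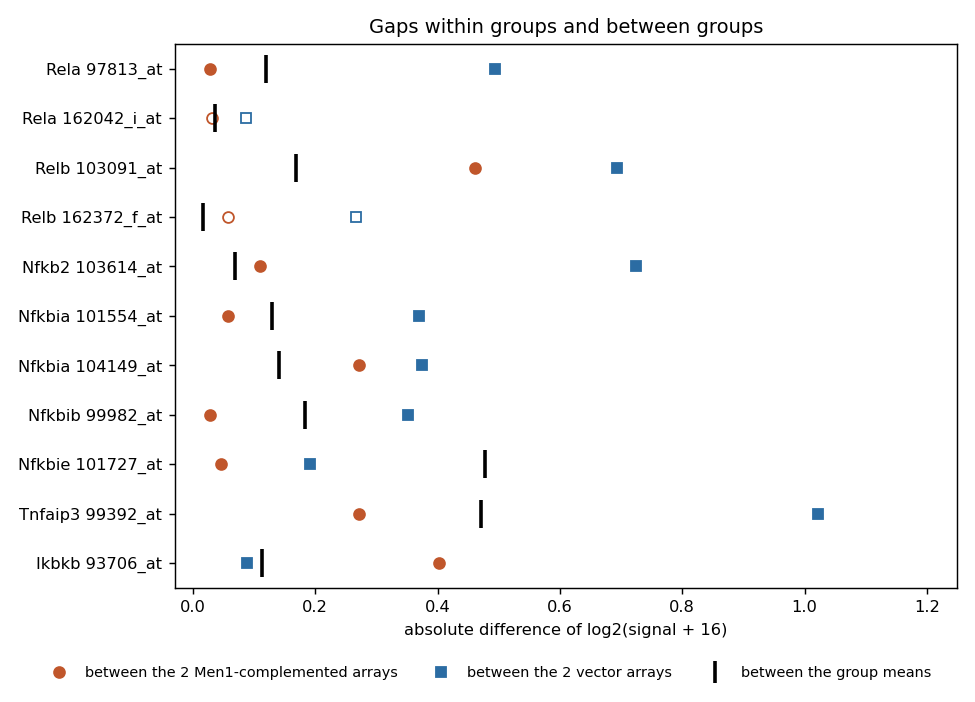
Absolute log2 gap between the 2 Men1-complemented arrays (orange circles), between the 2 vector arrays (blue squares) and between the group means (black bars) for each member probe set. Open symbols mark the 2 probe sets at control level on all 4 arrays, and of the other 9 the vector gap lies beyond the black bar for 7, reaching 1.02 in Tnfaip3.

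Several directions changed with the vector array that was left out. Without vector replicate 1, 5 of the 9 probe sets were lower with Men1, as were 58.9% of the 9258, with medians of -0.047 and -0.080. Without vector replicate 2, 8 of the 9 were higher, as were 54.2% of the 9258, with medians of 0.31 and 0.032. Tnfaip3 moved the furthest, with a log2 difference of 0.98 without vector replicate 1 and of -0.040 without vector replicate 2. In the fit without vector replicate 1 it was the 1 member at an unadjusted limma p under 0.05, at 0.0162, where 8.3% of all probe sets stood below that value. Nfkbie was the 1 member without vector replicate 2, at a log2 difference of 0.57 and an unadjusted limma p of 0.0355, where 4.5% of all did. Nfkbie was above 0 whichever array was left out, from 0.38 to 0.57. Nfkbib was too, although it came to 0.0064 without vector replicate 2.

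**Figure D4:**
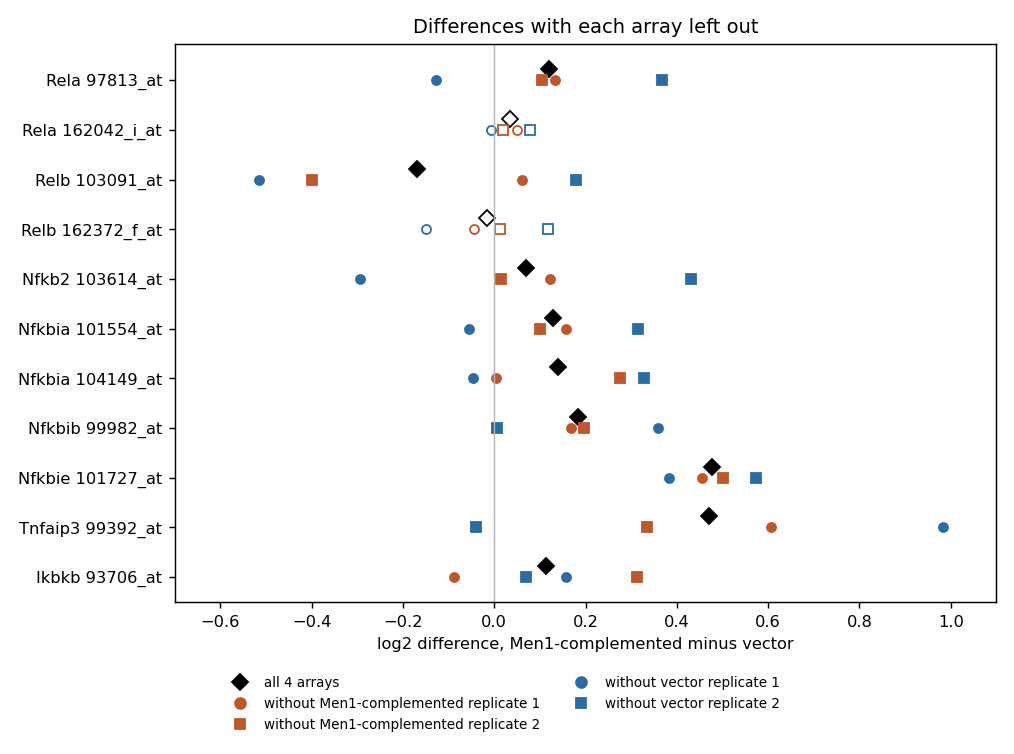
Log2 difference (Men1-complemented minus vector) of each member probe set with all 4 arrays (black diamonds) and with 1 array left out (orange for a Men1-complemented array, blue for a vector array, circles for replicate 1 and squares for replicate 2). Open symbols mark the 2 probe sets at control level on all 4 arrays, and of the other 9 only those of Nfkbie and Nfkbib stay above 0 in all 5 fits, with Tnfaip3 ranging from -0.040 to 0.98.

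Other genes of the pathway were taken from 7 lists, each gene by its brightest probe set, which gave 96 measured genes of 125 listed. Of these 0 passed the adjusted threshold, and 1 stood at an unadjusted limma p under 0.05 against 1.68% of all genes. Above the controls on at least 1 array were 70 of the 96, and counts of directions are over these genes. Of the 70, 31 were above 0 and 39 below, where 46.5% of 6690 such genes on the array were above 0, with medians of -0.041 over the 70 and -0.019 over the 6690. Of the 70, 58 exceeded the controls on all 4 arrays. The controls were lower on the vector arrays, and the genes of the 70 that exceeded them only there were all below 0. The groups did not overlap for 7 genes higher and 11 lower of the 96, against 22.1% of all genes in both directions together.

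The list of other inhibitors and feedback regulators had 11 measured genes, none at control level throughout, 2 above 0 and 9 below, with a median of -0.13. Commd1, which promotes the removal of RelA from chromatin, read 28.1 and 17.3 with Men1, as against 40 and 31.2 with vector, a log2 difference of -0.42 (SE 0.23), with Men1-complemented replicate 2 at control level. Bcl3, an atypical IkB protein of the nucleus, stood at 16.8 and 18.9 with Men1, versus 15.5 and 67.2 with vector, with 3 of the 4 signals at control level. Zfand5, a ubiquitin-binding protein, differed by -0.22 (SE 0.21). Rel, the remaining measured subunit gene, was at control level on all 4 arrays. Nfkb1, the other subunit gene listed, was not among the measured genes.

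Of 13 genes of kinases and the degradation machinery 7 were above 0 and 6 below, with a median of 0.0074. Tab2, an adaptor of the kinase that activates IKK, read 906 and 785.1 with Men1, as against 794.2 and 679.1 with vector, and the groups overlapped. Ikbkg encodes the regulatory subunit that binds IKK beta. It stood at 93.9 and 101.1 with Men1, versus 92.2 and 92.1 with vector, so the groups were apart by a log2 difference of 0.069 (SE 0.17), and its second probe set differed by 0.37 (SE 0.19). Ikbke, an IKK-related kinase, differed by 0.17 (SE 0.17), with Men1-complemented replicate 2 at control level. Csnk2a1, a casein kinase subunit, differed by -0.12 (SE 0.19) at its brightest probe set. Its other probe sets differed by -0.025 (SE 0.21), 0.013 (SE 0.17) and 0.25 (SE 0.22).

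Receptors and adaptors had 21 measured genes, of which 17 exceeded the controls on some array, 9 with a difference above 0 and 8 below, with a median of 0.036. Tradd, the adaptor of the tumour necrosis factor receptor, read 98.1 and 241.9 with Men1, as against 298.4 and 326.8 with vector. Both arrays with Men1 were lower, but they lay further from each other than the vector arrays did, and the log2 difference of -0.94 had an SE of 0.41 and an unadjusted limma p of 0.0749. Irak1, a kinase of the interleukin receptor pathway, stood at 317.3 and 312.2 with Men1, versus 258.2 and 231.6 with vector, a log2 difference of 0.34 (SE 0.17). Traf5, another adaptor, differed by -0.57 (SE 0.33) with groups that overlapped.

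Of 8 ligand genes 3 exceeded the controls on at least 1 array and 1 on all 4. Il1a was at control level on every array, while Tnf and Tnfsf11 exceeded the controls on 1 vector array each. Target genes numbered 34, of which 19 exceeded the controls on some array, with 8 above 0, 11 below and a median of -0.075. Of the 19, 15 exceeded the controls on all 4 arrays. Those that did so only on vector arrays, Vcam1 at its brightest probe set among them, were below 0. Il6, an NF-kB-driven cytokine gene and the 1 pathway gene with an unadjusted limma p under 0.05, at 0.0323, read 1.9 and 1.9 with Men1, as against 8.8 and 9.9 with vector. All 4 of these signals were at control level, so no fold is given. Gadd45b, a stress-response gene, stood at 183.6 and 220.5 with Men1, versus 306.3 and 271.7 with vector, a log2 difference of -0.49 (SE 0.19), and its second probe set differed by -0.19 (SE 0.18). At its brightest probe set Vcam1, an adhesion molecule gene, stood at 9.4 and 16.6 with Men1, versus 18.2 and 34.3 with vector. Both signals with Men1 were at control level. A second Vcam1 probe set went the other way, at 11.3 and 31.4 with Men1, as against 7.6 and 24.9 with vector. Its log2 difference was 0.21 (SE 0.40), and the groups overlapped. In both groups replicate 1 of this probe set was at control level. The remaining Vcam1 probe set was at control level on all 4 arrays. Among 8 co-regulators 7 exceeded the controls on some array, with 4 above 0 and 3 below. Crebbp, the acetyltransferase that RelA recruits, differed by 0.33 (SE 0.17), Hdac3 by -0.21 (SE 0.18) and Ncoa3 by 0.15 (SE 0.18).

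**Figure D5:**
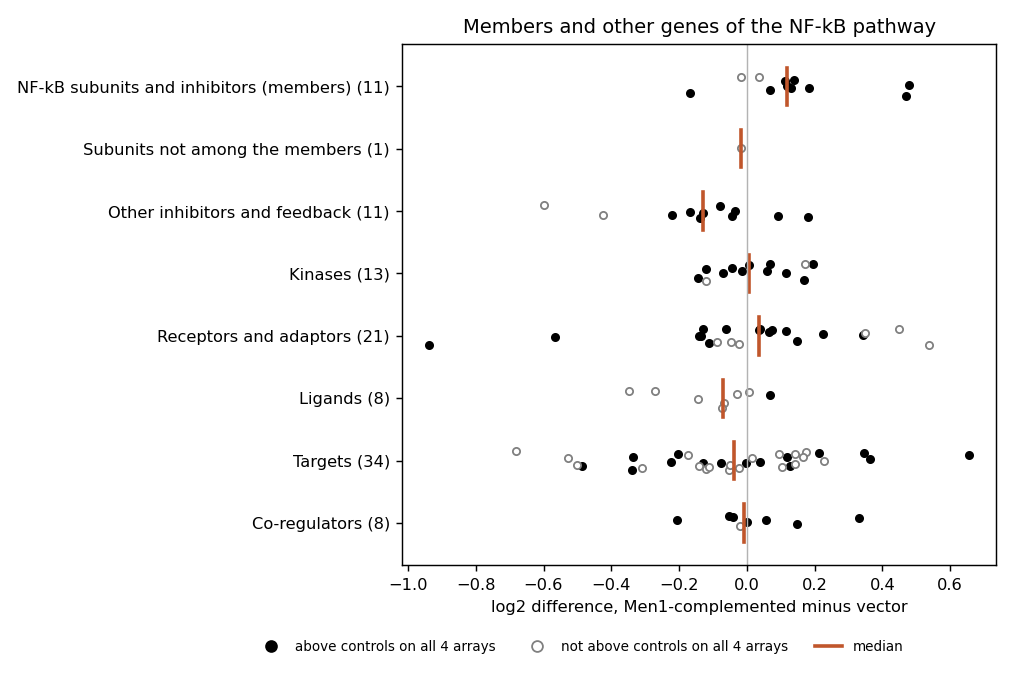
Log2 difference (Men1-complemented minus vector) of the 11 member probe sets and of the genes of the 7 other lists, with the number of points in brackets, filled points for probe sets above the controls on all 4 arrays, open points for the others and orange bars for medians. The members' median of 0.12, with the 2 probe sets at control level included, lies to the right of 0 and that of the other inhibitors, -0.13, to the left. Without vector replicate 1 the members' median was -0.047.

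For likeness to Nfkbie, 7899 other single-gene probe sets were compared. Their mean over the 4 arrays exceeded 16.575, the highest such mean among the controls without added RNA. This cutoff differs from the control level of each array. Those closest to the pattern of Nfkbie over the 4 arrays were of Ncoa6, Plxna3 and Entpd2. Their root-mean-square distances from it, on centred log2 signals, were 0.0300, 0.0349 and 0.0384. Over 4 arrays such likeness is a description of these arrays.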

How the data were processed

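Total RNA was hybridised to 4 Affymetrix arrays, 2 per group. The authors deposited linear probe set intensity computed by MAS5 in Affymetrix Expression Console. Both names come from the submitters' processing notes, without versions. Whole-array scaling hides any change in total RNA per cell. Of 12488 probe sets the 66 control probe sets were left out and 12422 were tested, of which 10833 had 1 symbol. No filter on dim signals and no further normalization was applied. Signals were analysed as log2(signal + 16) with limma 3.58.1 (lmFit, then eBayes) under R 4.3.3. Tests were two-sided, and p was adjusted by Benjamini-Hochberg over all probe sets, at a threshold of 0.05. Residual degrees of freedom were 2, prior ones 2.87, and the median SE was 0.22. Precision is limited by having 4 arrays. The labels do not tell whether replicates were separate cultures, so the spread behind each p may be technical. An exact permutation of 2 arrays against 2 allows no two-sided p below 0.333.

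The members and lists were chosen with earlier results of these data known. From each list the text names the 3 genes with the smallest p and any under 0.05, and 3 probe sets most like the member with the smallest p. A few more genes (Ikbkg and the markers named) were chosen after their values were seen. Counts of directions leave out what was at control level on all 4 arrays, also a choice made after the values were seen. Alternatives were other pseudocounts (1 and 64), quantile normalization, leaving out dim probe sets, keeping control probe sets, a replicate block, another prior, and leaving out each array. Dim probe sets were those whose mean over the 4 arrays did not exceed 16.575, the highest such mean among the controls without added RNA. The fit was run on simulated data with independent errors and with noise scaled below that of these arrays. That run does not show how well differences of the size seen here would be found.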

Additional observations from a re-analysis of the deposited data

How the results depend on the processing

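By limma, 0 probe sets passed the adjusted threshold in all 11 alternatives, with 233 at an unadjusted p under 0.05 as reported, 118 with dim probe sets left out and 121 to 1031 with single arrays left out, 1031 being without vector replicate 1. Nfkbie was the 1 member under that value as reported, and the count was 0 with a pseudocount of 1, with dim probe sets left out, with a trend and robust prior and without either Men1-complemented array, for a range of 0 to 1 without single arrays. Its unadjusted p ran from 0.0283 to 0.215 over the alternatives, with the direction kept in all 11. Groups did not overlap for 2 of 11 member probe sets after quantile normalization, against 25.2% of all probe sets. They did not for 4 and 5 of the 11 without Men1-complemented replicate 1 and 2, against 50% and 52.4% of all, and for 8 and 7 without vector replicate 1 and 2, against 72.4% and 68%. The median member difference was 0.12 as reported and -0.047 to 0.18 without single arrays. Of 96 pathway genes 1 stood at an unadjusted p under 0.05 as reported, against 1.68% of all genes by their brightest probe set. There were 3 with a pseudocount of 64 (2.29% of all genes), 2 with quantile normalization (2.15%), 2 with the trend and robust prior (1.37%) and, with dim probe sets left out, 0 of 66 (1.13%). Without single arrays there were 0 to 11, 11 being without vector replicate 1, where 7.91% of all genes did.

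Directions of single members turned when arrays were left out. The ranges were -0.13 to 0.37 for Rela 97813_at, -0.52 to 0.18 for Relb 103091_at, -0.29 to 0.43 for Nfkb2, -0.056 to 0.31 for Nfkbia 101554_at, -0.047 to 0.33 for Nfkbia 104149_at, -0.040 to 0.98 for Tnfaip3 and -0.088 to 0.31 for Ikbkb. Rela 162042_i_at ran from -0.0077 to 0.079 and Relb 162372_f_at from -0.15 to 0.12, with 0.0060 for the second after quantile normalization, but both were at control level on all 4 arrays and no direction is read from them. A group left with 1 array was taken to vary as the other group did.

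With replicate number as a replicate block, 297 probe sets, 0 members and 4 pathway genes stood at an unadjusted p under 0.05, where 2.39% of all probe sets and 2.15% of all genes did. Deviations of same-numbered arrays from their group means correlated at 0.26 over all probe sets. The labels do not say whether a number marks a shared culture or day, so what same-numbered arrays share is not known. Dim signals limit Nfkbie, whose vector signals were near the controls.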
